A study of Rattus norvegicus with 49 samples.

Results

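Genes of heme synthesis, heme breakdown and iron handling were followed in rat liver and kidney to look for signs of a heme load. The set holds 10 genes: Hmox1, Blvrb, Alas1, Alas2, Fech, Hpx, Hamp, Tfrc, Fth1 and Slc40a1. A probe set was taken for a gene where the array's annotation gave that symbol and no other. This gave 12 probe sets for 9 of the 10 genes, of 20826 probe sets with 1 symbol and 14217 genes in all. Tfrc had 2 probe sets, Slc40a1 had 3 and the other genes had 1 each. Fth1, the ferritin heavy chain, had only a probe set that its annotation shares with another symbol, so it has no value here.

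The animals were male Harlan Sprague Dawley rats, an outbred stock, aged 6 to 8 weeks when assigned to groups. They received propylene glycol phenyl ether, a glycol ether solvent, in corn oil by gavage on 5 consecutive days, at 0, 1, 10, 100, 500 or 1000 mg/kg, and were killed the day after the last dose. The controls at 0 mg/kg received corn oil alone. The dosing volume was 5 mL/kg, and rats were housed 5 per cage. The labels also name a dose of 2000 mg/kg, from which there is no tissue. Liver had 5 control arrays and 4 per dose with compound. Kidney had the same numbers except for 3 arrays at 500 mg/kg. A treatment text in the labels names another compound, MCHM, and the compound of the title and sample labels was followed. Array medians ranged from 6.47 to 6.62 in liver and from 6.62 to 6.77 in kidney. The 9 hepatocyte markers averaged 13.04 to 13.30 over the control livers, and the 10 proximal tubule markers averaged 11.80 to 12.03 over the control kidneys.

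Lysis of red cells frees hemoglobin, which haptoglobin binds, and heme, which hemopexin binds. Both complexes are taken up, heme oxygenase opens the heme ring, biliverdin reductases make bilirubin, and the freed iron is stored in ferritin or leaves the cell through ferroportin. Free heme also lifts the repressor BACH1 from Hmox1, represses Alas1 in liver, and an iron surplus raises liver hepcidin and lowers the transferrin receptor. Loss of red cells raises erythropoietin from the kidney, lowers hepcidin and brings young red cells, rich in Alas2 and globin RNA, into the blood. Some phenyl glycol ethers are known to lyse red cells.

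Promoters are shown for the genes whose rise passed the test and that the sequence table lists, Tfrc and Blvrb, and for Hamp, whose control by iron and inflammation is best known. The sequences are the 250 bases before the start of each gene in RefSeq on GRCr8, written 5′ to 3′ on the gene's strand. Of the genes with values, Hmox1 was not listed in the sequence table.
Tfrc, chr11:81690319-81690568, minus strand: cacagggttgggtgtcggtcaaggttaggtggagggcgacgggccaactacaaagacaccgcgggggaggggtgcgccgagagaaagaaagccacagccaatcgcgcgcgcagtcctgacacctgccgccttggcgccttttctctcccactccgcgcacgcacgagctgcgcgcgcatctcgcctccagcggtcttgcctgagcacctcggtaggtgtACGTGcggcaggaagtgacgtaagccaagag
Blvrb, chr1:91866008-91866257, plus strand: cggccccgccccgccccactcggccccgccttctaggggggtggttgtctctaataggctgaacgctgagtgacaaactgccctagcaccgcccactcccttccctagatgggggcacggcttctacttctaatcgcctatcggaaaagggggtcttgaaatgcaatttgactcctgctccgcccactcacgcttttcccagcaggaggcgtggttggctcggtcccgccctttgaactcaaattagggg
Hamp, chr1:95300272-95300521, minus strand: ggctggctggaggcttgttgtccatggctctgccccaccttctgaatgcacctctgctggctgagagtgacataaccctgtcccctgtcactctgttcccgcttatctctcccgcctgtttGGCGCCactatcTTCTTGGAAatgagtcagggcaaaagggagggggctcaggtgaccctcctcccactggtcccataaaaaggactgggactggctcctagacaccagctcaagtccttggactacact
Capitals in Tfrc mark ACGTG, the core recognised by hypoxia-inducible factors, 31 to 27 bases before the start. Capitals in Hamp mark GGCGCC, the core of the BMP and SMAD element, 129 to 124 bases before the start, and TTCTTGGAA, a match to the STAT motif TTCNNGGAA, 117 to 109 bases before the start. Both strands were searched, and the motifs did not overlap one another. On either strand, ACGTG was found in 16.9% of the 27457 promoters of this length, GGCGCC in 9.24% and TTCNNGGAA in 4.19%. The core TGACNNNGC, bound by NRF2 and BACH1, was found in 10.2%. Tfrc also held GGCGCC, left in lower case, 118 to 113 bases before the start. The Blvrb window held none of the 4 motifs, which says only that these letters are not in this window.

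The log2 expression values describe the genes' levels within each organ. In liver, Hpx averaged 13.42 ± 0.07 (SD, n = 25) and Hamp 12.71 ± 0.27 (SD, n = 25), higher than 99.7% and 99.3% of genes. Alas2, the erythroid enzyme that starts heme synthesis, stood at 5.86 ± 0.22 (SD, n = 25) in liver and 5.94 ± 0.21 (SD, n = 24) in kidney. In kidney, Hpx averaged 3.49 and Hamp 4.85, and neither was shown to lie above background there. Levels of different probe sets cannot be ranked against each other as amounts of RNA, so only changes from each organ's controls are compared. The RNA is from whole tissue, where fewer cells of a type and less RNA per cell cannot be told apart.

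At 1000 mg/kg Hmox1, which heme is known to induce, fell in liver. Blvrb rose there, and the other 7 genes with values, Hpx and Hamp among them, did not pass the test. In kidney Tfrc, which takes up transferrin iron, rose, and it was the one gene of the set to pass there. A gene passed at a limma adjusted p under 0.05, with Benjamini-Hochberg adjustment over all 14217 genes. In other settings or with single arrays left out, the call was lost in 9 of 18 fits for liver Hmox1. For liver Blvrb it was lost in 2 of 18, and for kidney Tfrc in 9 of 19. The 2 of 9 genes in liver stand beside 1.05% of all genes called in that comparison, and the 1 of 9 in kidney beside 1.55%.

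**Figure D1:**
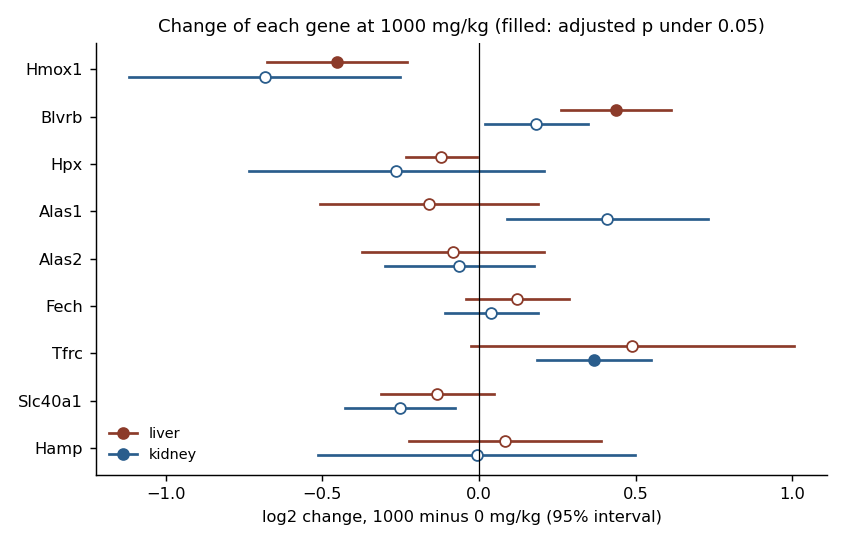
Log2 change at 1000 mg/kg from 0 mg/kg (x axis) of the 9 genes with values (y axis), in liver (red) and kidney (blue); bars are 95% intervals and filled points passed an adjusted p of 0.05. Hmox1 lies below 0 in both organs, at -0.45 in liver and -0.68 in kidney, and Blvrb and Tfrc lie above 0 in both.

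Hmox1 encodes heme oxygenase 1, the inducible enzyme that opens heme. In liver the 5 control arrays read 8.12, 8.14, 8.78, 8.15 and 8.23. The 4 arrays at 1000 mg/kg read 7.78, 7.81, 7.90 and 7.83. All 4 lay below every control array, as did those of 1.73% of all genes, and below every array at the other doses, of which the lowest was 7.93 at 10 mg/kg. The fall was 1.37-fold, a log2 change of -0.45 (SE 0.11, 95% interval -0.68 to -0.23, limma adjusted p = 0.0375). The arrays at 1, 10, 100 and 500 mg/kg ranged from 7.93 to 8.45. In order of dose their changes were -0.07, -0.24, -0.09 and -0.03, and none passed. At 10 mg/kg the arrays read 8.07, 7.93, 8.07 and 8.10, all below every control, as did those of 0.886% of all genes (limma adjusted p = 0.515). Hmox1 was lower at 1000 than at 500 mg/kg by -0.43 on the log2 scale, which did not pass over all genes (limma adjusted p = 0.294).

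The size of the liver fall leans on the control array at 8.78. Without it the change was -0.33 (limma adjusted p = 0.0555). The call was also lost on leaving out control replicate 5 or any 1 of the 4 arrays at 1000 mg/kg, where adjusted p lay between 0.0559 and 0.0987. With the 2 groups fitted alone, adjusted p was 0.221, and with every probe set fitted on its own it was 0.0773. Macrophages of the liver, the Kupffer cells, express Hmox1, and their markers were lower in the same arrays. The log2 change was below 0 for 10 of 10 measured macrophage markers, their median was -0.22 beside 0.02 over all genes, and none passed. At 1, 10, 100 and 500 mg/kg 8, 10, 7 and 9 of the 10 markers lay below 0, and none passed. The medians at these doses were -0.11, -0.18, -0.02 and -0.12, beside 0.02 over all genes at each. Every dose is set against the same control arrays, so these counts are not independent. At 1, 10, 100 and 500 mg/kg 1, 3, 0 and 0 of the 10 were lower at an unadjusted limma p under 0.05. At 1000 mg/kg 5 of the 10 were. In order of dose, 3.11%, 3.15%, 2.89%, 3.24% and 4.54% of all genes were lower at that p. The mean level of the 10 markers lay between 8.90 and 9.28 in controls and between 8.66 and 8.97 at 1000 mg/kg. The log2 change was -0.55 for Cd5l, -0.48 for Adgre1 and -0.46 for Cd163 (limma adjusted p = 0.0955, 0.146 and 0.139). The part of macrophage RNA in the Hmox1 result was not tested.

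In kidney the Hmox1 controls read 5.91, 5.76, 6.72, 6.42 and 5.91, and arrays at 1000 mg/kg read 5.21, 5.17, 5.40 and 6.05. Of the arrays at 1000 mg/kg 3 lay below every control, and the last overlapped them. The log2 change was -0.68 (SE 0.21, 95% interval -1.12 to -0.25) and did not pass (limma adjusted p = 0.111). Without the array at 6.05 the change was -0.88 and passed (limma adjusted p = 0.0285). It also passed with a block for replicate number (limma adjusted p = 0.0381). In the other 16 of 18 alternatives it was not called, with limma adjusted p up to 0.311. With single arrays left out the change ran from -0.88 to -0.54. Of the kidney's 10 macrophage markers 8 had a change below 0 and 2 above, up to 0.20, with a median of -0.13 beside -0.02 over all genes. Their mean level lay between 5.58 and 5.71 in controls and between 5.40 and 5.53 at 1000 mg/kg, and Adgre1, an adhesion receptor of macrophages, fell by 0.80 (limma adjusted p = 0.0218). It was the 1 marker of the 10 called, where 1.04% of all genes were called lower. Leaving out control replicate 2, or replicate 2 or 3 at 1000 mg/kg, left none, and leaving out control replicate 5 gave 2. None was called either among genes at or above the median level, with a block for replicate number, or with the 2 groups alone. The part of these markers in the kidney values of Hmox1 was not tested.

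Blvrb encodes biliverdin reductase B, which also reduces flavins and is abundant in liver and red cells. In liver the controls read 10.09, 10.00, 9.87, 9.88 and 9.96. At 1000 mg/kg the arrays read 10.29, 10.45, 10.25 and 10.60, all above every control, as did those of 3.45% of all genes. The rise was 1.36-fold, a log2 change of 0.44 (SE 0.08, 95% interval 0.26 to 0.61, limma adjusted p = 0.0115). Without 1000 mg/kg replicate 4 the change was 0.37 and did not pass (limma adjusted p = 0.0528), nor did it with the 2 groups alone (0.0904).

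The Blvrb arrays at 1 mg/kg read 10.25, 10.22, 10.26 and 10.34, and those at 500 mg/kg read 10.44, 10.25, 10.39 and 10.18. In order of dose, the log2 changes at 1, 10, 100 and 500 mg/kg were 0.31, 0.24, 0.34 and 0.36. None of these passed, with limma adjusted p of 0.284, 0.392, 0.301 and 0.0945, and all 5 doses share the same control arrays. At 1, 100 and 500 mg/kg all 4 arrays lay above every control, as did those of 1.89%, 2.54% and 3.55% of all genes. Of the 5 arrays that set this baseline, the highest was 10.09, and 1 array at 10 mg/kg, at 10.05, lay under it. The trend with dose rank, a slope per dose step, was 0.07 (SE 0.02, limma adjusted p = 0.0220) in liver. It was the 1 gene of the 9 called in that test, beside 0.661% of all genes. Leaving out control replicate 3, control replicate 4 or 1000 mg/kg replicate 4 ended that call.

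In kidney Blvrb averaged 7.86 ± 0.13 (SD, n = 5) in controls and 8.04 ± 0.09 (SD, n = 4) at 1000 mg/kg. The arrays overlapped and the change of 0.18 did not pass (limma adjusted p = 0.313). Blvra, the main adult biliverdin reductase, had a change of 0.64 in kidney (limma adjusted p = 0.0786). All 4 Blvra arrays lay above every control, as did those of 1.62% of all genes.

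**Figure D2:**
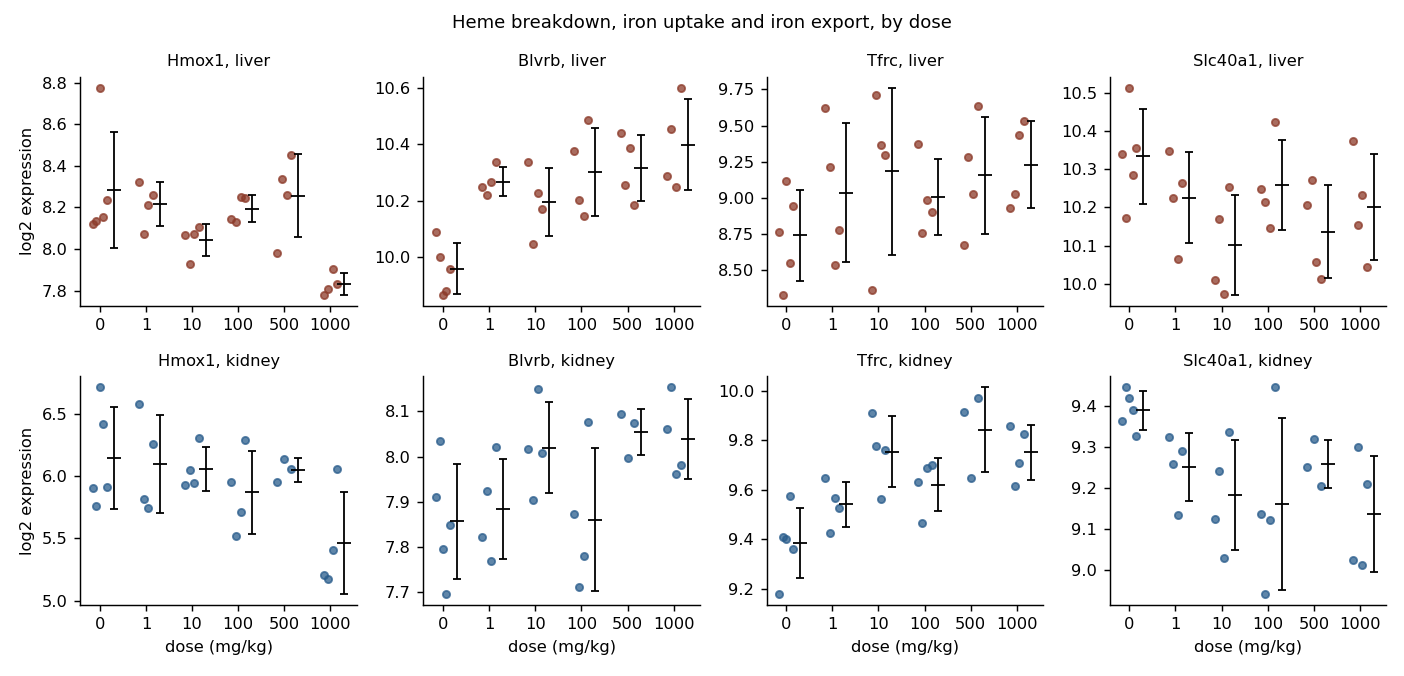
Log2 expression (y axes, which do not start at 0) of Hmox1, Blvrb, Tfrc and Slc40a1 by dose in mg/kg (x axes, evenly spaced) in liver (top) and kidney (bottom); each point is 1 array, and the bar beside it gives the mean ± SD. Liver Hmox1 at 1000 mg/kg lies between 7.78 and 7.90, under all other liver arrays, and kidney Tfrc at 1000 mg/kg lies between 9.62 and 9.86, above all controls.

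Tfrc encodes transferrin receptor 1, whose RNA is known to be stabilised by iron regulatory proteins when cell iron is low. In kidney the controls read 9.18, 9.41, 9.40, 9.57 and 9.36. At 1000 mg/kg the arrays read 9.86, 9.62, 9.71 and 9.82, and all lay above the highest control, as did those of 1.62% of all genes. The rise was 1.29-fold, a log2 change of 0.37 (SE 0.09, 95% interval 0.19 to 0.55, limma adjusted p = 0.0309). The changes at lower doses did not pass. In order of dose, the changes at 1, 10, 100 and 500 mg/kg were 0.16, 0.37, 0.24 and 0.46 (limma adjusted p = 1.00, 0.491, 0.686 and 0.195). The 3 arrays at 500 mg/kg read 9.91, 9.65 and 9.97, all above every control, as did those of 1.75% of all genes.

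The trend of kidney Tfrc with dose rank was 0.08 per dose step (SE 0.02, limma adjusted p = 0.0175), where 1.39% of all genes were called and Tfrc was the 1 of the 9. It passed in all 33 alternatives run, with adjusted p from 0.00797 to 0.0470. Most of these left out 1 array, and all used the brighter probe set or the mean of both. The trend of the second Tfrc probe set alone was 0.11 and did not pass (SE 0.03, limma adjusted p = 0.152 over all probe sets). The call at 1000 mg/kg was less steady. It was lost on leaving out control replicate 1, 2 or 3, or replicate 1, 3 or 4 at 1000 mg/kg, with changes from 0.32 to 0.38 and limma adjusted p from 0.0583 to 0.119. With the 2 probe sets averaged, the change was 0.47 and adjusted p was 0.0658. The second Tfrc probe set, dimmer, gave 0.56 (SE 0.19, limma adjusted p = 0.250 over all probe sets). Of the kidney arrays 7 stood more than 0.5 above the control mean in adipocyte markers, and the Tfrc call was kept without them.

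In liver Tfrc had a change of 0.49 at 1000 mg/kg with a wide interval, -0.03 to 1.01, and did not pass (limma adjusted p = 0.427). Its controls ranged from 8.33 to 9.12 and its arrays at 1000 mg/kg from 8.93 to 9.54. The spread between liver arrays of 1 dose was wide, with an SD of 0.31 in controls against 0.14 in kidney.

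Slc40a1 encodes ferroportin, the exporter of iron. In kidney the controls were tight, at 9.36, 9.45, 9.42, 9.39 and 9.33, and the arrays at 1000 mg/kg read 9.02, 9.30, 9.01 and 9.21. All 4 lay below every control, as did those of 3.09% of all genes, and the change of -0.25 did not pass (SE 0.08, limma adjusted p = 0.165). The arrays at 1 and 500 mg/kg also lay below every control, as did those of 0.626% and 2.55% of all genes. The other Slc40a1 probe sets gave -0.24 and 0.11 in kidney, so they differ in sign, and neither passed. In liver the change was -0.13 (limma adjusted p = 0.576).

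Around these members, the list of iron uptake, storage and export held 18 measured genes. In kidney 2 of 18 were called higher at 1000 mg/kg, Tfrc and Aco1, and none lower, beside 0.506% of all genes called higher. Aco1 encodes cytosolic aconitase, which without its iron-sulfur cluster acts as iron regulatory protein 1. It rose by 0.54 on the log2 scale (SE 0.12, limma adjusted p = 0.0184), although 1 or more arrays overlapped the controls. The list's median change was 0.04 against -0.02 over all genes. No gene was left as called on leaving out control replicate 2, or replicate 1, 3 or 4 at 1000 mg/kg, or with the 2 groups alone. The count was 1 with control replicate 1, 3 or 4 left out, with averaged probe sets, and with the adipocyte-rich arrays left out. In liver none of the 18 was called, beside 1.05% of all genes. The smallest p of the 18 there was that of Steap4, a metalloreductase, at -0.42 (limma adjusted p = 0.0707). All its arrays lay below the controls, as did those of 1.73% of all genes.

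Heme synthesis starts with Alas1 in all cells and Alas2 in red cell precursors and ends with Fech, which inserts iron into protoporphyrin. Alas1 in liver read 10.60, 10.38, 10.34, 10.73 and 10.75 in controls and 10.25, 10.19, 10.60 and 10.57 at 1000 mg/kg. These arrays overlapped, and the change of -0.16 had an interval from -0.51 to 0.19 (limma adjusted p = 0.766). In kidney the controls read 8.94, 8.58, 9.09, 9.32 and 9.43, and the arrays at 1000 mg/kg 9.31, 9.70, 9.59 and 9.33. The arrays at 9.70 and 9.59 lay above every control and the others within the control range. The change of 0.41 did not pass (limma adjusted p = 0.225).

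The log2 change of Fech was 0.12 in liver and 0.04 in kidney at 1000 mg/kg, and its intervals, -0.04 to 0.29 and -0.11 to 0.19, both held 0. At 500 mg/kg all 4 liver arrays of Fech lay above the controls, as did those of 3.55% of all genes. The lowest read 9.937 against a highest control of 9.932, and the change was 0.21 (limma adjusted p = 0.315). In kidney the Fech arrays also lay above every control at 1 and 500 mg/kg, as did those of 0.436% and 1.75% of all genes. The changes there were 0.11 and 0.10 and did not pass.

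Of 12 measured genes of heme synthesis, 2 were called higher in liver at 1000 mg/kg and none lower, where 0.739% of all genes were called higher and 0.309% lower. Abcb6, a porphyrin transporter, rose by 0.33 (SE 0.06, limma adjusted p = 0.00710), and Uros, uroporphyrinogen III synthase, rose by 0.53 (SE 0.11, limma adjusted p = 0.0219). Each had all 4 arrays above every control, as did 3.45% of all genes. Neither is the rate-limiting step. The list's median change was 0.07 against 0.02 over all genes. Neither was called with replicate 3 at 1000 mg/kg left out or with the 2 groups alone. The count was 1 with control replicate 2 or 4, or replicate 1 or 4 at 1000 mg/kg, left out. In kidney 0.506% of all genes were called higher at 1000 mg/kg. Of the 12, Slc25a38, the mitochondrial glycine carrier, was the 1 called, higher by 0.37 (limma adjusted p = 0.0485). That call was lost in most settings, among them those that left out control replicate 1, 2, 3 or 4, or replicate 1, 2 or 3 at 1000 mg/kg.

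**Figure D3:**
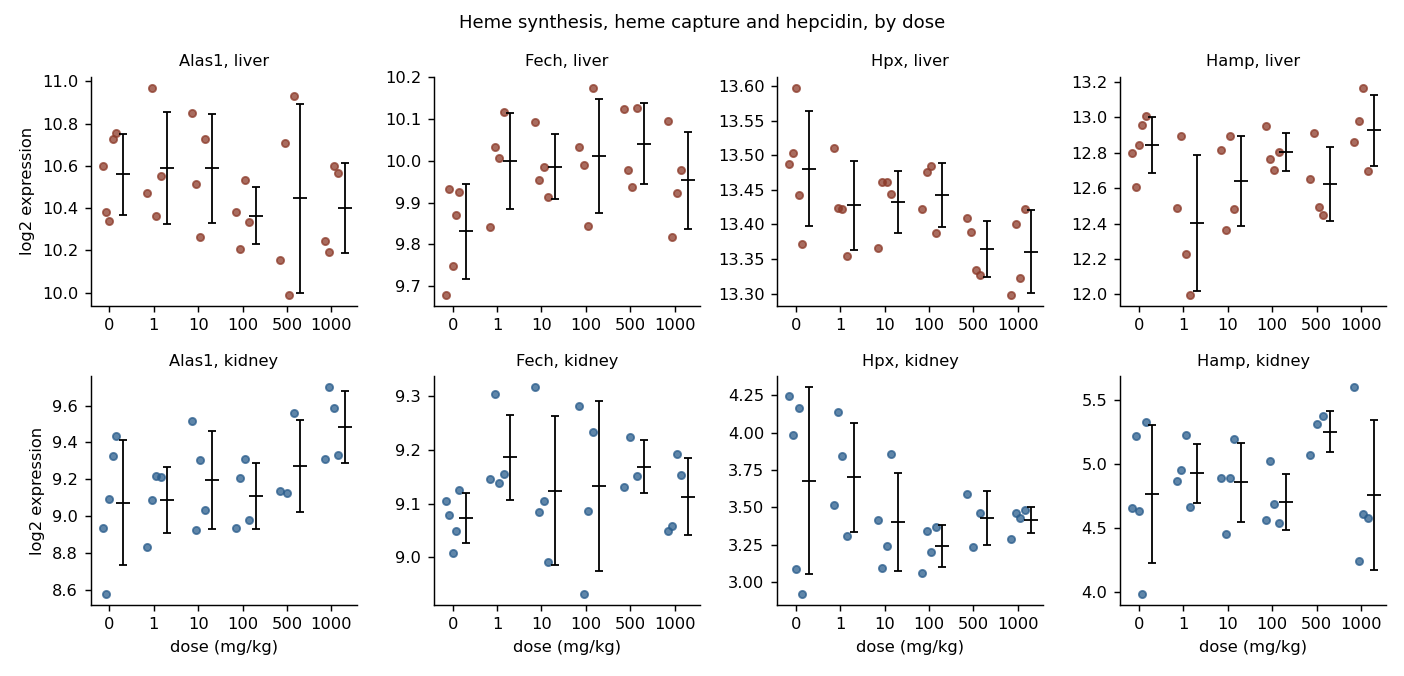
Log2 expression (y axes, which do not start at 0) of Alas1, Fech, Hpx and Hamp by dose in mg/kg (x axes, evenly spaced) in liver (top) and kidney (bottom); each point is 1 array with the group's mean ± SD beside it. Liver Hpx lies within 0.30 of itself over all 25 arrays, and kidney Hpx and Hamp are dim.

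Hemopexin, Hpx, is the plasma protein that binds free heme and is made by the liver, where heme and inflammation are known to raise it. Liver controls read 13.49, 13.50, 13.60, 13.44 and 13.37, and arrays at 1000 mg/kg read 13.30, 13.40, 13.32 and 13.42. The change was -0.12 (SE 0.06, 95% interval -0.23 to -0.01) and did not pass (limma adjusted p = 0.371). The arrays at 13.30 and 13.32 lay below every control, and the other arrays at 1000 mg/kg overlapped the controls. Haptoglobin, Hp, had a change of 0.07 in liver, from 14.00 ± 0.03 (SD, n = 5) to 14.07 ± 0.03 (SD, n = 4) (limma adjusted p = 0.600). All 4 Hp arrays lay above the controls, as did those of 3.45% of all genes. None of the 8 measured genes of hemoglobin and heme capture was called in liver or kidney, beside 1.05% and 1.55% of all genes.

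Hepcidin, Hamp, is the liver hormone that closes ferroportin. Its liver controls read 12.80, 12.61, 12.85, 12.96 and 13.01, and the arrays at 1000 mg/kg 12.86, 12.98, 13.17 and 12.69. The groups overlapped, and the change of 0.08 had an interval from -0.22 to 0.39 (limma adjusted p = 0.877). The largest Hamp change in liver was at the lowest dose, 1 mg/kg, at -0.44 (limma adjusted p = 0.378), from arrays at 12.49, 12.90, 12.23 and 11.99. Of 21 measured genes of hepcidin control, none was called in liver or kidney at 1000 mg/kg, beside 1.05% and 1.55% of all genes. The liver's acute phase list of 16 genes also had none called, and Orm1, an acute phase glycoprotein, came nearest at 0.72 (limma adjusted p = 0.0506).

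Red cell transcripts in the tissues come from blood held in the vessels and are known to rise with young red cells. Alas2 in liver read 5.69, 5.89, 6.02, 5.66 and 5.91 in controls and 5.63, 5.86, 5.67 and 5.85 at 1000 mg/kg. In kidney it read 5.75, 5.99, 5.82, 5.70 and 5.92 in controls and 5.69, 5.64, 5.75 and 6.01 at 1000 mg/kg. The groups overlapped in both organs, with changes of -0.08 (95% interval -0.37 to 0.21) and -0.06 (95% interval -0.30 to 0.17).

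The globins were not called at this dose. Hbb, the beta globin, had a change of -0.31 in liver (95% interval -0.59 to -0.03, limma adjusted p = 0.332) and of -0.15 in kidney (95% interval -0.43 to 0.13, limma adjusted p = 0.700). For Hba-a3, an alpha globin, the changes were -0.24 and -0.19, and neither passed. Globin genes have near-identical copies, so these probe sets may read several of them. Of 23 measured erythroid and reticulocyte genes, none was called in liver or kidney, beside 1.05% and 1.55% of all genes. The median changes of the 23 were -0.08 in liver and 0.04 in kidney. Without Alas2 and Fech, their mean level lay between 5.76 and 5.91 in control livers and between 5.73 and 5.84 at 1000 mg/kg.

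At 1 and 10 mg/kg in kidney no erythroid gene passed, beside 0% of all genes. At each dose 7 of the 23 had a change below 0. Alas2 at 1 mg/kg read 6.19, 5.99, 6.25 and 6.08, all above the controls, as did those of 0.436% of all genes, with a change of 0.29 (limma adjusted p = 1.00). At 10 mg/kg the change was 0.27 for Alas2, 0.31 for Hbb and 0.33 for Hba-a3 (limma adjusted p = 0.663 for each). Replicate 1 at 10 mg/kg was the highest kidney array for all of them, at 6.57, 13.39 and 11.00. Over the 24 kidney arrays the genes most like Alas2 were Hbb (Pearson r = 0.90) and Hba-a3 (0.86), and over the 25 liver arrays Hbb (0.76). These are descriptions, and the genes were read from the same arrays.

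**Figure D4:**
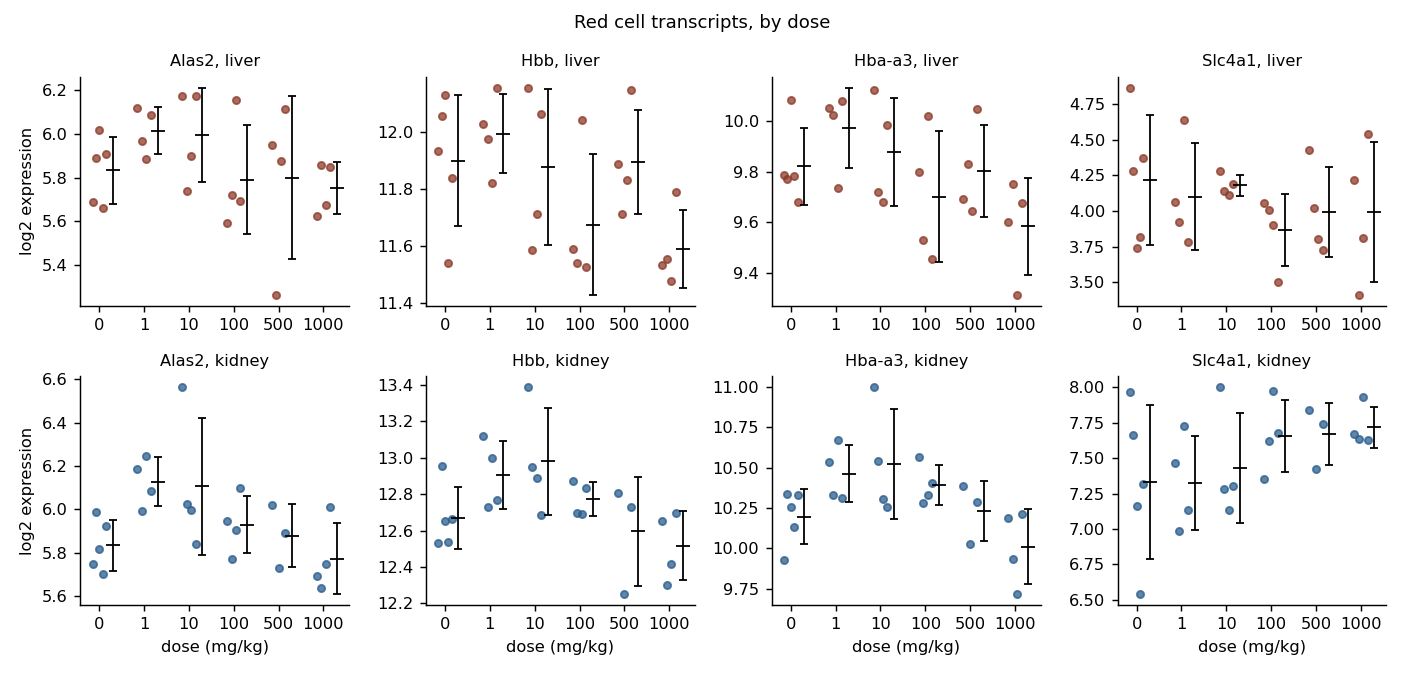
Log2 expression (y axes, which do not start at 0) of Alas2, Hbb, Hba-a3 and Slc4a1 (the red cell anion exchanger, also made in kidney) by dose in mg/kg (x axes, evenly spaced) in liver (top) and kidney (bottom); each point is 1 array with the group's mean ± SD beside it. In kidney replicate 1 at 10 mg/kg is the highest array for Alas2, Hbb and Hba-a3, and at 1000 mg/kg all of these overlap the controls.

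Erythropoietin, Epo, was dim on the kidney arrays, at 3.00 ± 0.16 (SD, n = 5) in controls and 3.17 ± 0.14 (SD, n = 4) at 1000 mg/kg, and was not shown to lie above background. Of 14 measured genes of oxygen lack, none was called in liver or kidney at 1000 mg/kg, beside 1.05% and 1.55% of all genes. Cd163, the macrophage receptor for haptoglobin and hemoglobin, is among the macrophage markers given above.

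Hmox1 and Blvrb also belong to the genes that BACH1 represses and NRF2 activates, and in liver they moved in opposite directions. Of 14 measured genes of this list, 3 were called higher and 1 lower in liver at 1000 mg/kg, beside the same 0.739% and 0.309% of all genes. Nqo1, a quinone reductase, rose by 1.33 (SE 0.13, limma adjusted p = 3.19e-06) and Me1, malic enzyme, rose by 0.80 (SE 0.16, limma adjusted p = 0.0144). Each had all 4 arrays above the controls, as did 3.45% of all genes, and Hmox1 was the one lower. The median change was 0.17 against 0.02 over all genes. With replicate 4 at 1000 mg/kg left out, the count called higher was 1, and Hmox1 was lost as given above. At 500 mg/kg 1 of the 14 was called higher in liver, beside 0.0492% of all genes. In kidney at 1000 mg/kg none of the 14 was called, beside 1.55% of all genes. Me1 at 0.37 and Hmox1 at -0.68 again lay on opposite sides of 0 there (limma adjusted p = 0.157 and 0.111). The list of heme breakdown and heme transport, 10 measured genes, held Blvrb and Hmox1 as its only calls in liver at 1000 mg/kg and none in kidney.

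With 1.05% of all genes called in liver and 1.55% in kidney at 1000 mg/kg, a short list may hold no call. A list with none called is therefore not shown to be unchanged. Where limma called none of a list at 1000 mg/kg, single genes still lay under an unadjusted p of 0.05. In liver these were 0 higher and 2 lower for heme capture, 1 and 2 for iron handling, 1 and 0 for hepcidin control, 1 and 2 for oxygen lack, 0 and 2 for the erythroid genes, 0 and 5 for the macrophage markers and 3 and 2 for the acute phase. In kidney they were 2 higher and 2 lower for heme breakdown, 0 and 1 for heme capture, 2 and 3 for hepcidin control, 4 and 2 for the BACH1 and NRF2 targets, 0 and 1 for oxygen lack and 0 and 0 for the erythroid genes. Across all genes 12.4% in liver (7.88% higher and 4.54% lower) and 13.3% in kidney (4.76% higher and 8.57% lower) lay under that p.

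**Figure D5:**
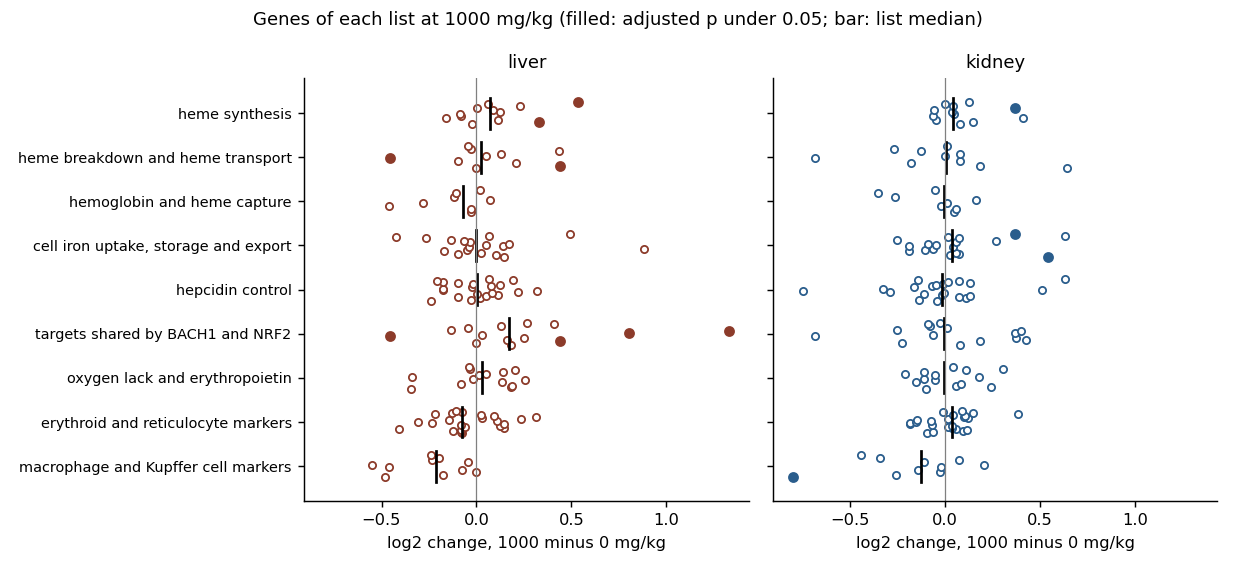
Log2 change at 1000 mg/kg from 0 mg/kg (x axis) of each measured gene of 9 lists (y axis) in liver (left) and kidney (right); filled points passed an adjusted p of 0.05 and black bars are list medians. The liver macrophage markers all lie at or below 0, with a median of -0.22, and the erythroid genes lie on both sides of 0.

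Over dose, calls among the 9 genes were limited to 1000 mg/kg and the dose trends. None was called in liver at 1, 10, 100 or 500 mg/kg, beside 0%, 0.00703%, 0% and 0.0492% of all genes, while unadjusted limma p lay under 0.05 for 3, 3, 2 and 4 of the 9 and for 9.45%, 9.22%, 9.18% and 10.7% of all genes. None was called in kidney at 1, 10, 100 or 500 mg/kg, beside 0% of all genes at each, with 1, 3, 2 and 2 of the 9 and 2.98%, 7.35%, 6.83% and 5.08% of all genes under an unadjusted 0.05. Between 1000 and 500 mg/kg none was called in liver or kidney, beside 0.00703% and 0% of all genes, and Hmox1 alone lay under an unadjusted 0.05 in each, as did 6.55% and 5.82% of all genes. At 1000 mg/kg itself 3 of 9 in liver and 5 of 9 in kidney lay under an unadjusted 0.05, where 12.4% and 13.3% of all genes did.

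The organs were compared through the difference of their changes at 1000 mg/kg, fitted over all 49 arrays. The fit treated the arrays as independent and did not model rats that may have given both organs. None of the 9 genes was called by limma, beside 0.626% of all genes, and Alas1 and Blvrb had an unadjusted p under 0.05 (0.0200 and 0.0318). The largest differences were those of Alas1, at -0.57 for liver minus kidney (SE 0.24, limma adjusted p = 0.309), and Blvrb, at 0.26 (SE 0.12, limma adjusted p = 0.363). For Hmox1 the difference was 0.23 with an interval from -0.26 to 0.72, and for Tfrc 0.12 with an interval from -0.43 to 0.68. A call in 1 organ is therefore not shown to be particular to it.

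The genes whose levels ran most like Hmox1 over the 25 liver arrays were Fgb (Pearson r = 0.77), Fli1 (0.70), Cybc1 (0.68), Ccl24 (0.66) and Irf8 (0.66). Over the 24 kidney arrays they were Eif4g3 (0.89), Cap1 (0.84), Armcx3 (0.83), Trim35 (0.83) and Tsc22d1 (0.83). For liver Hamp they were Psd3 (0.67), Mreg (0.66), Dmgdh (0.66), Kcns1 (0.65) and Tmem176b (0.63). These are the highest correlations over all genes and are given as descriptions.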

How the data were processed

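Total RNA of 49 tissue samples was measured on Affymetrix rat expression arrays. The deposited values are log2 expression per probe set, made with RMA per the submitters' processing notes, with no RMA version given in the sources used here. RMA makes the arrays' distributions alike, so a shift common to most genes may not be seen. Detection calls were not used here, and how much of a low value is background is unknown.

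Groups came from the sample titles. Where a gene had several probe sets, the one brightest on average over all 49 arrays stood for it. Models with 1 mean per dose group were fitted per organ with limma 3.58.1 in R 4.3.3. Contrasts against 0 mg/kg, 1000 against 500 mg/kg, the trend with dose rank and, over both organs, the difference between the organs' changes were tested. P-values were adjusted by Benjamini-Hochberg over 14217 genes. Precision is limited by how many arrays there are. The labels call the samples biological replicates. The models were tested on simulated data.

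The members, lists and tests were chosen with earlier results of these data known. The text names all genes of the set, up to 3 genes of a list with the smallest p at 1000 mg/kg, any called gene, and the 5 nearest neighbours of Hmox1, Alas2 and Hamp. Others, such as Hp, Epo and the globins, were chosen as known markers of hemolysis. Promoters are from RefSeq on GRCr8, which listed 8 of the genes.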

Additional observations from a re-analysis of the deposited data

Results flagged for a closer look

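In 2 of the 99 groups of 4 or 5 arrays looked at, 1 array stood far from the others, and chance alone gives about 1 in 20 groups. Hmox1 in control liver replicate 3 read 8.78, against 8.12 to 8.23 in the other 4 controls. Without this array the change of Hmox1 at 1000 mg/kg was -0.33 (limma adjusted p = 0.0555). Fech in kidney at 1 mg/kg replicate 2 read 9.30, against 9.14 to 9.15 in the other 3 arrays. No call rests on that group.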

How the results depend on the processing

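Of the 9 genes, 2 were called in liver at 1000 mg/kg. The count was 1, Blvrb alone, with every probe set fitted on its own and with the replicate block, 0 with the 2 groups alone, and 0 to 2 with single arrays left out. At 500 mg/kg it was 1, Blvrb, rather than 0 with genes at or above the median level and with a variance trend. The liver trend count of 1 was 0 with the replicate block and 0 to 1 with single arrays left out. In kidney at 1000 mg/kg the count of 1 was 0 with averaged probe sets, with every probe set on its own and with the 2 groups alone, 2 (Hmox1 and Tfrc) with the replicate block, and 0 to 1 with single arrays left out. Without 1000 mg/kg replicate 4 the 1 called was Hmox1 and not Tfrc. Kidney Hamp, at -0.01 and not called, changed sign to 0.021 with quantile normalization, 0.039 with centred arrays and 0.13 with the replicate block, and ranged from -0.29 to 0.17 with single arrays left out. Within an organ, arrays at 0 and 1000 mg/kg that share a replicate number did not vary together (correlations from -0.15 to 0.12). The other doses, and liver against kidney, were not checked, so the replicate number is not shown to mark a pairing. The cause of these shifts was not tested. The other counts over the set kept their value in the alternatives run. Among genes at or above the median level, 8 of the 9 were tested in liver and 5 in kidney. The genes left out there could not be called. The kidney has 3 arrays at 500 mg/kg, and dim genes such as kidney Hpx, Hamp and Epo are limited by background.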
